A study of Mus musculus with 5 samples.

Results

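The genes described here are 55 microRNA genes of the mouse, out of 16422 genes measured in nuclear RNA of the retina. A row was taken where its symbol had the form of a microRNA gene and where it lay neither on the X or Y chromosome nor in the large imprinted microRNA cluster of chromosome 12. The rule itself used no measured values. The rows it was applied to had passed the authors' expression filter, a raw value of at least 5 in all libraries of either condition. RefSeq holds 1030 microRNA genes that match the rule. The 55 genes lie on 15 chromosomes, 13 of them on chromosome 13, and their rows span 57 to 121 bases with a median of 85, the size of a microRNA hairpin. GENCODE M21 types 54 of them as microRNA genes and has no gene named Mir5109. It also types the locus of Mir1839 as a small Cajal body RNA and that of Mir677 as a small nucleolar RNA.

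All mice carried a tamoxifen-inducible Cre recombinase that the Aldh1l1 promoter drives, and also NuTRAP, a reporter that Cre switches on and that tags nuclei with biotin (the genotype label spells this Aldhl1l-Cre/Ert2+; NuTRAP+), and tamoxifen had been given to all of them. Positive libraries (n = 3, animals 12, 40 and 55) hold RNA of nuclei caught on streptavidin beads by INTACT, the isolation of nuclei tagged in specific cell types, which the design text names as Müller glia, the radial glia of the retina. Input libraries (n = 2, animals 40 and 55) hold RNA of the nuclei of the same retinae before capture. Each sample was made from 2 retinae of 1 animal, the age of the mice is not given in the labels used here, and no Input library of animal 12 was analysed here.

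A microRNA gene is transcribed as a long primary transcript, either from a promoter of its own or as part of a longer host gene. In the nucleus the Microprocessor, made of the RNase Drosha and its partner Dgcr8, cuts out a hairpin, which Exportin-5 carries to the cytoplasm. There Dicer trims it to the mature strand, whose seed (bases 2 to 8) pairs with target mRNAs. Retina is known for abundant miR-124 and miR-9 in neurons, for the miR-183 cluster (with miR-182) in photoreceptors and for let-7 in Müller glia. Reads of nuclear RNA over a microRNA gene come from primary transcripts, hairpins or host transcripts, so the values below are not levels of mature microRNAs.

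The sequences below (RefSeq, GRCm38.p6, the same assembly as mm10) show which members make the same or nearly the same product, with the seed in capitals. The let-7 genes are given first because they form the largest family among the members. All 6 carry the seed GAGGUAG, and their 5p strands of 22 bases differ from let-7a-5p by 1 base in let-7c and let-7f, by 2 in let-7b and let-7d and by 4 in let-7i.
let-7a-5p (Mirlet7a-1): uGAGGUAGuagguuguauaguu
let-7b-5p (Mirlet7b): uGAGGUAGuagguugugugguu
let-7c-5p (Mirlet7c-2): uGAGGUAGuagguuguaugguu
let-7d-5p (Mirlet7d): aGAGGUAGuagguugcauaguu
let-7f-5p (Mirlet7f-1): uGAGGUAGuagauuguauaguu
let-7i-5p (Mirlet7i): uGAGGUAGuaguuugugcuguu
The 3p strands of Mir199a-1 and Mir199b were identical over 22 bases, with the seed CAGUAGU, although the genes lie on chromosomes 9 and 2.
miR-199a-3p and miR-199b-3p: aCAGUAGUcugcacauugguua
Mir24-1 and Mir3074-1 are read from opposite strands of the same stretch of chromosome 13. Their mature strands overlap by 20 bases (miR-24-3p at chr13:63301251-63301272 on the plus strand, miR-3074-5p at chr13:63301249-63301270 on the minus strand) and are fully complementary there.
miR-24-3p (Mir24-1): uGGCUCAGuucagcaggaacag
miR-3074-5p (Mir3074-1): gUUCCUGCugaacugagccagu
Members at either end of the values, and the retinal microRNAs miR-9 and miR-182, are shown for reference.
miR-1943-5p (Mir1943): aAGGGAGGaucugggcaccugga
miR-761 (Mir761): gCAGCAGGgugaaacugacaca
miR-378b (Mir378b): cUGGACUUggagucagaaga
miR-425-5p (Mir425): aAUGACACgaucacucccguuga
miR-140-3p (Mir140): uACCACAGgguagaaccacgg
miR-9-5p (Mir9-2): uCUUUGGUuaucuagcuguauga
miR-182-5p (Mir182): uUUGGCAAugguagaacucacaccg
Of the 55 members, 50 had a hairpin in the RefSeq table, all 50 at the coordinates of the deposited rows, with a GC content of 31.2% to 82.2% (median 53.4%). Mir124a-2, Mir5109, Mir709, Mir466i and Mir1907 had none.

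Setting Positive beside Input nuclei shows which RNAs are enriched or depleted by the capture. Values are the authors' log2 values, each relative to an Input baseline of its own gene, so no expression level and no read depth can be read from them. Log2 fold changes below are means of Positive minus means of Input libraries. In captured nuclei the microRNA genes lay mostly a little below Input: 41 of 55 (74.5%) had a negative log2 fold change, against 53.0% of all genes, and their median was -0.17, against -0.02 over all genes. No member passed the test (limma, adjusted p under 0.05 over all genes), and no gene of the table did, so the share called was 0% in each direction; with the animal as a random block, 11 genes passed over the whole table, none of them a member. At an unadjusted p under 0.05, 2 members were higher and 8 lower, where 6.45% and 7.76% of all genes were. Every Positive value lay above every Input value in 4 members (7.27%), against 16.7% of all genes. Every Positive value lay below in 17 (30.9%), against 21.8%. Of these 17, 6 had passed the authors' expression filter in a single condition. In bulk nuclei, fewer cells of a type and less RNA per cell cannot be told apart.

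Of the members, 44 had passed the authors' expression filter in Positive and Input alike and 11 in a single condition. Over the 44 the median log2 fold change was -0.16. Of these, 32 (72.7%) were negative, against 52.6% of all genes that passed in both. Of the 44, 3 (6.82%) lay above both Input libraries, against 16.8% of such genes. Below both lay 11 (25%), near the 22.0% of such genes. At an unadjusted p under 0.05, 1 of the 44 was higher and 7 were lower, where 6.23% and 7.64% of all such genes were. The 11 had a raw value of at least 5 in every library of 1 condition and missed it somewhere in the other. A difference was partly built in by that filter. Their median was -0.69, against -0.23 over all genes that passed in 1 condition. Of the 11, 9 (81.8%) were negative, against 61% of such genes. Below both Input libraries lay 6 (54.5%), against 17.2%, and above both lay 1 (9.09%), against 14.2%. Other genes of at most 300 bases, mostly small nucleolar RNA genes, had a median of -0.10, with 49 of 72 negative. The 6 microRNA genes of the chromosome 12 cluster had a median of -0.90 with 6 of 6 negative. Of these 6 genes, 2 had passed the filter in both conditions, so for the others a difference was likewise partly built in. These shares describe lists and were not tested against each other.

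**Figure D1:**
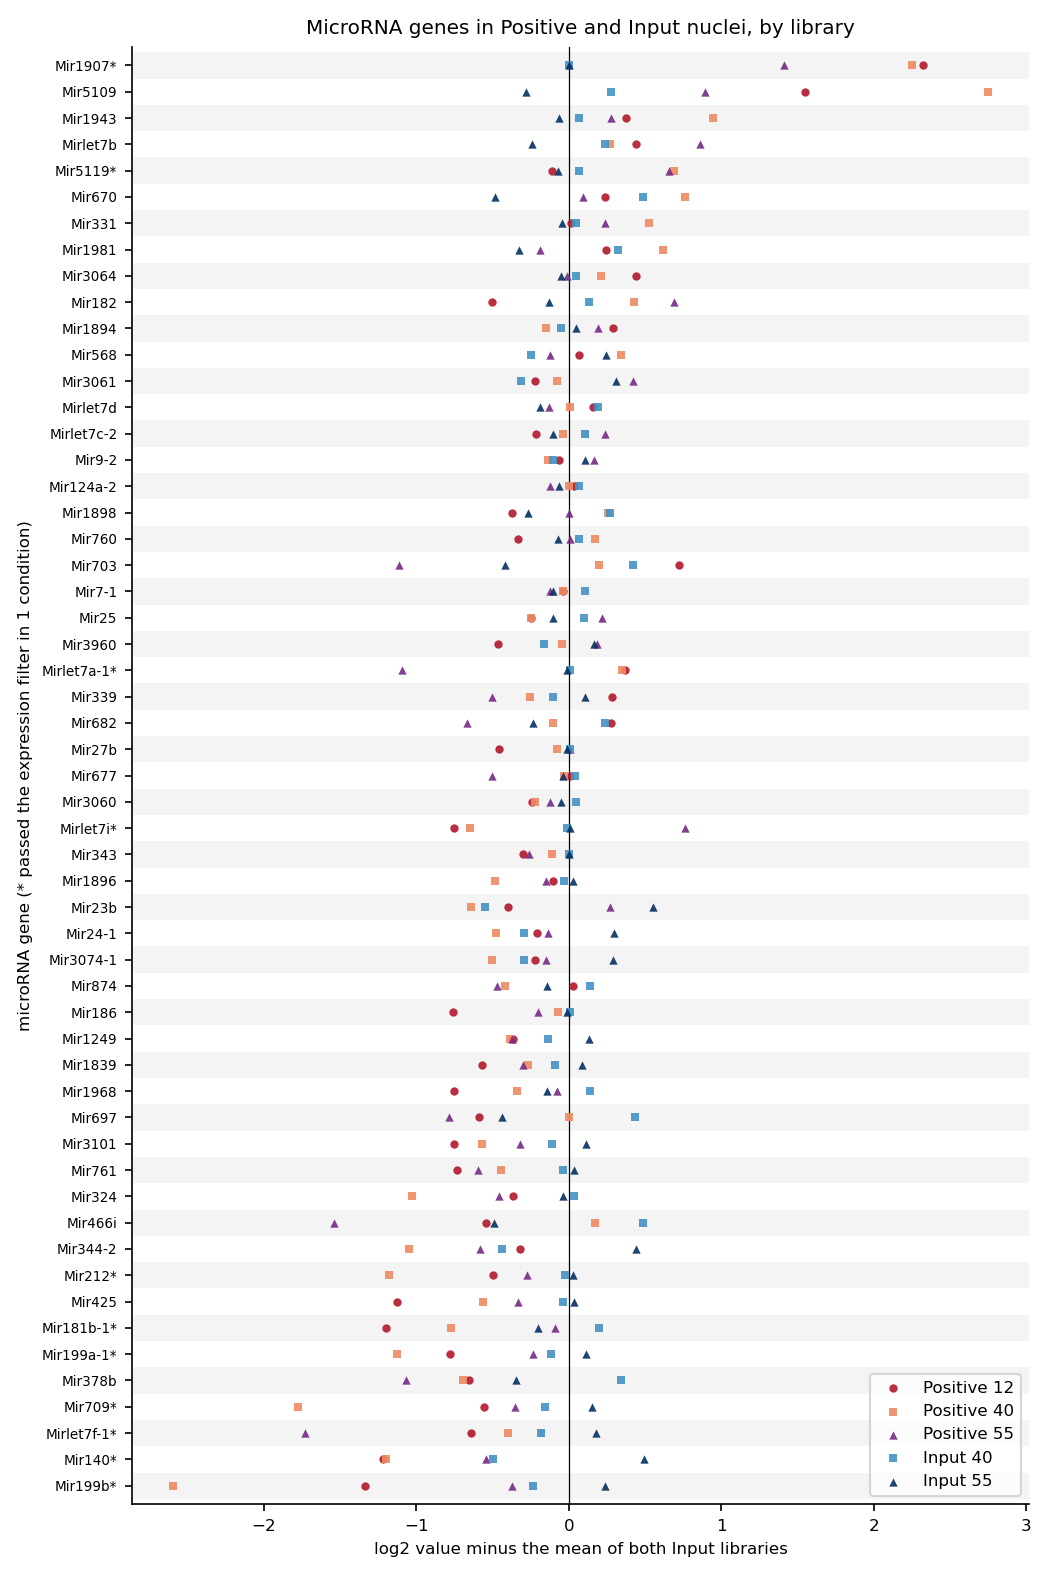
Log2 value of each of the 55 microRNA genes in each library (x axis), after subtraction of the mean of both Input libraries. Each row is a gene and each point 1 library of Positive (circle, square and triangle for animals 12, 40 and 55) or Input nuclei (square and triangle), with genes ordered by log2 fold change. The Positive mean is left of the line in 41 rows, and in most rows the groups overlap.

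Relative to the Input mean, the members' median was -0.25 in Positive 12, -0.11 in Positive 40 and -0.14 in Positive 55, and 67.3%, 65.5% and 67.3% of the members were lower there, against 51.5%, 51.9% and 53.9% of all genes. Within animal 40 the median of Positive minus Input was -0.18 with 72.7% of members lower, against 50.9% of all genes. Within animal 55 it was -0.19 with 58.2% lower, near the 55.7% of all genes. The direction was lower in both animals for 30 members (54.5%) and higher in both for 13 (23.6%), against 38.4% and 31.7% of all genes, and opposite for 12 members. The lowest of the 5 values was in a Positive library for 80.0% of the members and 63.4% of all genes.

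The spread between replicates of these short genes was wide. The pooled SD of the log2 values had a median of 0.30 over the members, 0.35 over the other genes of at most 300 bases and 0.13 over all genes. The Input libraries of animals 40 and 55 differed by a median of 0.23 in the members and 0.12 in all genes. The 3 Positive libraries ranged over more than 1 log2 unit in 10 members, among them Mir5109, Mir182, Mir181b-1, Mir199b and 3 let-7 genes.

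**Figure D2:**
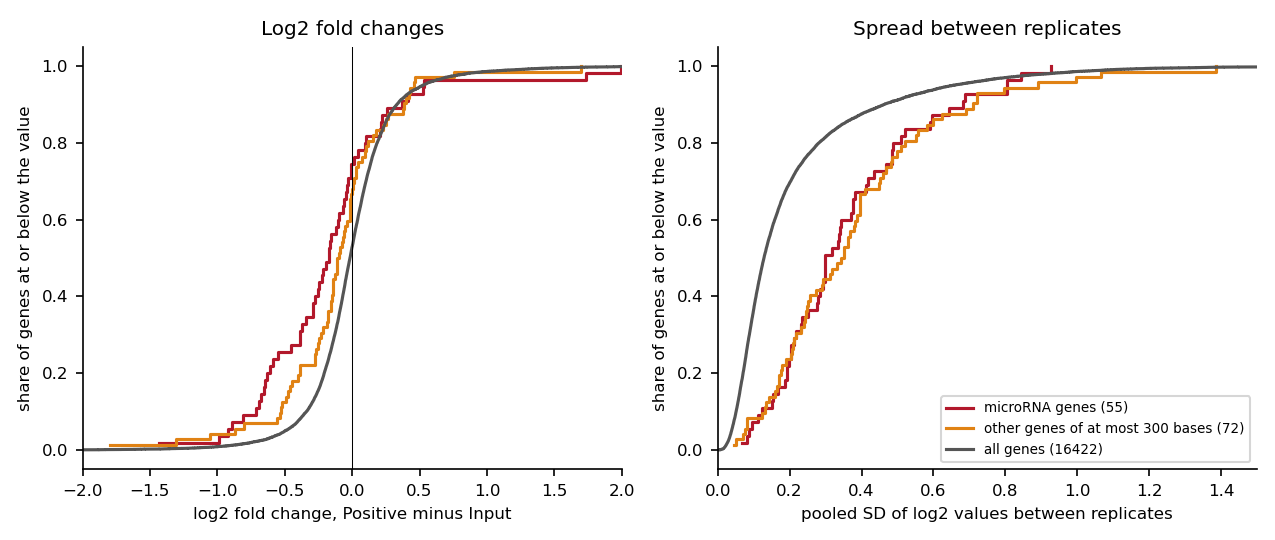
Cumulative share of genes (y axes) by log2 fold change of Positive over Input (left, x axis) and by pooled SD between replicates on the log2 scale (right, x axis), for the 55 microRNA genes, 72 other genes of at most 300 bases and all 16422 genes. The microRNA curve lies left of that of all genes for fold changes, with medians of -0.17 and -0.02, and both short-gene curves lie right of it for the SD, with medians of 0.30 and 0.35 against 0.13.

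Markers of several cell types also lay mostly to one side of Input in the captured nuclei. None of them passed the test (limma, adjusted p under 0.05), as no gene of the table did. Of all genes, 53.0% had a negative log2 fold change. All 10 Müller glia markers were higher in Positive nuclei, with a median log2 fold change of 0.45 and list means per library of 0.34 to 0.66 in Positive against -0.05 and 0.04 in Input. Markers of pigment epithelium were higher in 6 of 6 (Positive means 0.64 to 1.00, Input -0.06 and -0.04), endothelial markers in 6 of 6 (0.20 to 0.47, Input -0.34 and -0.02), astrocyte markers in 4 of 4 (0.13 to 0.74, Input -0.17 and -0.01) and microglial markers in 4 of 6, while rod markers stayed near Input (median 0.05) and bipolar markers were lower in 6 of 6. Since the values hold no level, none of these can be said to be at 0. The part of these cell types in the microRNA values was not tested.

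Mir1907 had the highest log2 fold change of the members. It lies at chr15:50889025-50889114 on the minus strand and overlaps a UTR exon of Trps1, a GATA-type transcriptional repressor, in GENCODE M21. Its values were 2.32, 2.25 and 1.41 in Positive 12, 40 and 55, against 0.00 in both Input libraries. The groups did not overlap, and both Input libraries sat at one common minimum, a floor, so the size of the difference depends on that floor. The log2 fold change was 1.99 (SE 0.31). It had passed the filter in 1 condition, and with Input at the floor a difference was built in by that filter, so the value is a description.

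Mir5109, at chr5:17776749-17776835 where GENCODE M21 has no gene, came next among all members. It had 1.83, 3.03 and 1.17 in Positive 12, 40 and 55, against 0.56 and 0.00 in Input 40 and 55. All Positive values lay above both Input values, and Positive 40 stood well above the other libraries (log2 fold change 1.73, SE 0.59, adjusted p = 0.338 by limma). Mir1943, in an intron of Tmem184b, had 0.44, 1.01 and 0.34 in Positive against 0.13 and 0.00 in Input (log2 fold change 0.53, SE 0.23). Mirlet7b is the remaining member with no overlap on the high side, at 0.68, 0.51 and 1.10 in Positive against 0.48 and 0.00 in Input (log2 fold change 0.52, SE 0.24, adjusted p = 0.384 by limma). Its lowest Positive value was only just above Input 40, and without Input 55 its log2 fold change was 0.28. That of Mir1943 was 0.32 without Positive 40, which also had the highest value of Mir5109 (1.22 without it).

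The other members with high fold changes that passed in both conditions overlapped Input. Their log2 fold changes were 0.37 for Mir670, 0.26 for Mir331, 0.22 for Mir1981 and Mir3064, 0.21 for Mir182, 0.11 for Mir1894 and 0.10 for Mir568, with SEs of 0.15 to 0.38. Those of Mir670, Mir1981, Mir182 and Mir568 turned negative without 1 of the libraries, and with quantile normalization those of Mir670, Mir1981 and Mir568 did.

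On the low side, Mir761 had the smallest p. It lies at chr4:109017655-109017730 and overlaps a coding and UTR exon of Nrd1 (nardilysin, a metalloendopeptidase). Its values were -0.70, -0.41 and -0.56 in Positive 12, 40 and 55, against 0.00 and 0.07 in Input 40 and 55, with no overlap and close replicates. The log2 fold change was -0.59 (SE 0.11, unadjusted p = 0.00363), with an adjusted p of 0.331 by limma. Mir1249 and Mir3101 were likewise below both Input libraries. Mir1249 had -0.23, -0.25 and -0.24 in Positive against 0.00 and 0.27 in Input, which gives a log2 fold change of -0.37 (SE 0.11). Mir3101, which overlaps an exon of Rab4b (a small GTPase of endosomal recycling), had -0.64, -0.46 and -0.21 in Positive against 0.00 and 0.22 in Input, with a log2 fold change of -0.55 (SE 0.16). The adjusted p was 0.331 by limma for each of them.

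Mir378b, in an intron of Msi2 (the RNA-binding protein Musashi-2) but on the other strand, had the lowest log2 fold change of the members that passed in both conditions. Its values were -1.0, -1.04 and -1.41 in Positive 12, 40 and 55, against 0.00 and -0.69 in Input 40 and 55, and the log2 fold change was -0.81 (SE 0.25, adjusted p = 0.331 by limma). The Input libraries differed by more from each other than Input 55 did from Positive 12, and without Input 40 the log2 fold change was -0.46. Mir425 had -1.09, -0.53 and -0.30 in Positive against 0.00 and 0.07 in Input, and Mir324 had -0.33, -0.99 and -0.42 in Positive against 0.07 and 0.00 in Input. Both lay below Input in every Positive library, with log2 fold changes of -0.68 (SE 0.25) and -0.61 (SE 0.22), and of -0.45 without Positive 12 for Mir425 and -0.41 without Positive 40 for Mir324. Mir1839 was at -0.48, -0.18 and -0.21 in Positive against 0.00 and 0.18 in Input, and its log2 fold change was -0.38. Mir344-2 (-0.65), Mir466i (-0.63), Mir697 (-0.45) and Mir1968 (-0.39) had Positive values that overlapped Input. Without 1 library their log2 fold changes ranged from -1.09 to -0.21 for Mir344-2, -1.12 to -0.15 for Mir466i, -0.88 to -0.02 for Mir697 and -0.54 to -0.21 for Mir1968, and Input 40 or Input 55 gave the extremes for the first 3 of them.

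Mir140 and the miR-199 genes passed the filter in 1 condition. Mir140, known for its role in cartilage, lies at chr8:107551244-107551313 within Wwp2, an E3 ubiquitin ligase gene, and had -0.72, -0.70 and -0.05 in Positive against 0.00 and 0.99 in Input (log2 fold change -0.99, SE 0.37, and -0.49 without Input 55 or -1.49 without Input 40). Positive 55 lay just below Input 40. Mir199b, opposite to Dnm1 (dynamin 1, of synaptic vesicle endocytosis), had -1.10, -2.36 and -0.14 in Positive against 0.00 and 0.47 in Input, and Mir199a-1, opposite to Dnm2 (the ubiquitous dynamin 2), had -0.66, -1.01 and -0.12 in Positive against 0.00 and 0.23 in Input. Both were below both Input libraries in every Positive library, in the same order of libraries, with log2 fold changes of -1.44 (SE 0.67) and -0.71 (SE 0.28). Without Positive 40 that of Mir199b was -0.86, and over the fits without 1 library that of Mir199a-1 ranged from -0.95 to -0.51. The miR-199 genes are known for expression in mesenchymal and vascular cells.

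Mir124a-2, one of the genes of the neuronal miR-124, had -0.03, -0.06 and -0.19 in Positive against 0.00 and -0.13 in Input. Mir9-2, a gene of the neural miR-9, had 0.04, -0.03 and 0.27 in Positive against 0.00 and 0.21 in Input. Their log2 fold changes were -0.03 (SE 0.09) and -0.01 (SE 0.13), and the groups overlapped. Mir182, of the photoreceptor cluster, had -0.37, 0.56 and 0.82 in Positive against 0.26 and 0.00 in Input, so that Positive 12 was the lowest library and Positive 55 the highest (log2 fold change 0.21, SE 0.38). The log2 fold change was -0.07 (SE 0.10) for Mir7-1, within Hnrnpk, and -0.10 (SE 0.18) for Mir25, within the replication helicase gene Mcm7. Mir181b-1 (-0.69, SE 0.36) and Mir212 (-0.65, SE 0.28), which neuronal activity is known to induce, had passed in 1 condition. The other genes of these families that are known from retina were not analysed here.

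The 6 let-7 genes had log2 fold changes of both signs, none past the test. Mirlet7b was at 0.52, Mirlet7d at 0.01, Mirlet7c-2 at -0.01, Mirlet7a-1 at -0.12, Mirlet7i at -0.22 and Mirlet7f-1 at -0.92 in log2 fold change, with a median of -0.06. Mirlet7a-1, Mirlet7f-1 and Mirlet7i had passed the filter in 1 condition and had the widest spread. Mirlet7a-1 had 0.38, 0.36 and -1.08 in Positive 12, 40 and 55, against 0.02 and 0.00 in Input. Mirlet7f-1 had -0.46, -0.22 and -1.55 in Positive, against 0.00 and 0.36 in Input. In both genes Positive 55 was the lowest library by over 1 log2 unit, while Mirlet7i had its highest value there (-0.74, -0.64 and 0.77 in Positive against 0.00 and 0.02 in Input). The signs of Mirlet7i, Mirlet7a-1, Mirlet7c-2 and Mirlet7d turned when 1 library was left out.

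On chromosome 13, Mirlet7a-1, Mirlet7f-1 and Mirlet7d lie 261 and 1714 bases apart in the noncoding RNA 6720427I07Rik. On chromosome 15, Mirlet7c-2 and Mirlet7b lie 621 bases apart in Lncppara. The log2 fold change was 0.52 for Mirlet7b and -0.01 for Mirlet7c-2, whose values were -0.11, 0.07 and 0.34 in Positive against 0.21 and 0.00 in Input. In both genes Positive 55 was the highest library. The miR-23b, 27b and 24-1 genes of chromosome 13 form a cluster with 154 and 423 bases between them, and their log2 fold changes were -0.26 (SE 0.43), -0.17 (SE 0.16) and -0.28 (SE 0.22). Mir23b had 0.15, -0.09 and 0.82 in Positive against 0.00 and 1.10 in Input, so that the difference between the Input libraries was larger than that between the groups.

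Mir24-1 had 0.09, -0.18 and 0.16 in Positive against 0.00 and 0.59 in Input, and Mir3074-1 had 0.07, -0.21 and 0.14 in Positive against 0.00 and 0.58 in Input. Mir24-1 lies wholly within Mir3074-1 on the other strand, with an overlap of 68 bases. In every library the values of these genes differed by at most 0.023, while Mir24-1 itself ranged over 0.78. Whether the authors counted reads by strand is not given in the sources used here, so reads of these genes cannot be told apart, and they are best read as a single measurement. The counts over the members hold both genes.

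**Figure D3:**
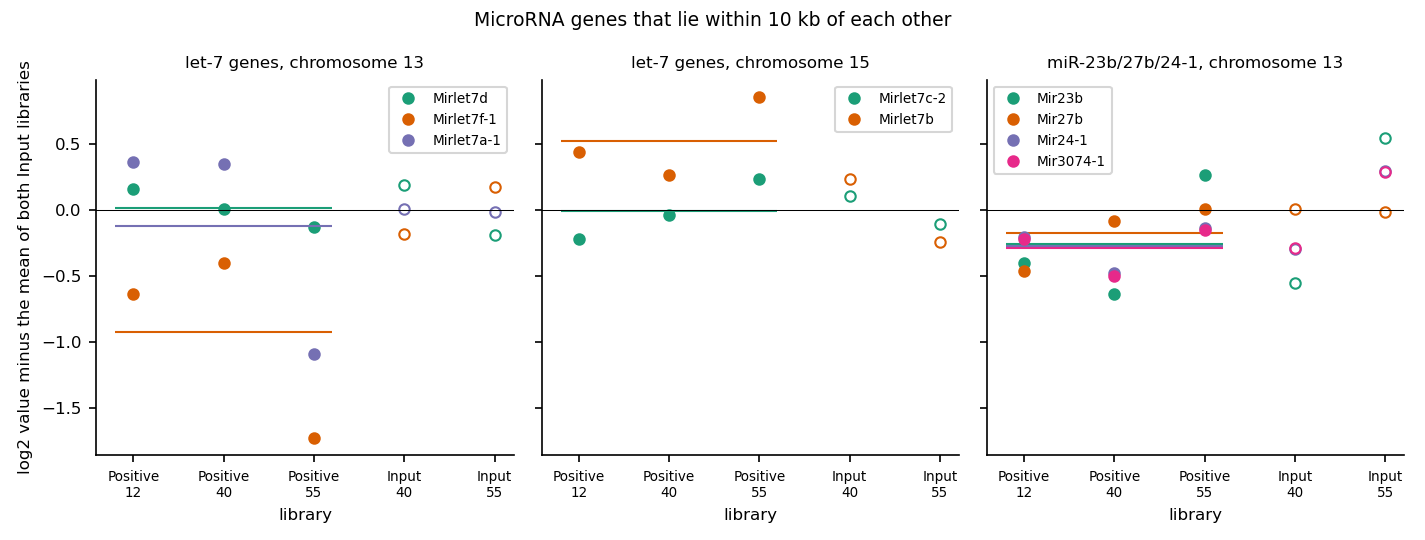
Log2 value in each library (x axis), after subtraction of the mean of both Input libraries (y axis), for microRNA genes within 10 kb of each other; filled points are Positive, open points Input, and a line marks the Positive mean of a gene. Mirlet7a-1 and Mirlet7f-1 are low in Positive 55, Mirlet7b is above 0 in all Positive libraries, and Mir24-1 and Mir3074-1 coincide.

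Most of the members sit in longer genes. In GENCODE M21, 31 overlapped an exon of a gene on the same strand (median log2 fold change -0.12, 22 negative), 17 lay in an intron of one (-0.26, 14 negative), 5 had a gene on the other strand alone (-0.71, 5 negative) and 2 had no annotated gene around them (Mir5109 and Mir182, 1.73 and 0.21). With no statement on strand, reads of a member and of the gene around it cannot be told apart, and a member may hold reads of its host's introns or exons.

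Of the members, 22 lay wholly inside the deposited span of a longer gene on the same strand. The direction was the same as that of the surrounding gene in 12 of these pairs (11 lower and 1 higher) and opposite in 10. The median log2 fold change was -0.21 for the members and -0.06 for the genes around them. The member lay lower than the gene around it in 18 of 22 pairs, by a median difference of -0.17, and it had the larger absolute fold change in 18. The pooled SD between replicates was also larger for the member in 18 pairs, with medians of 0.23 and 0.10. The part of this spread in the larger fold changes was not tested. In the other 69 pairs of a row of at most 300 bases inside a longer one, 65.2% of differences were negative, with a median of -0.10. Across the 22 pairs, which share the same 5 libraries, Pearson's r was 0.07 and Spearman's rho 0.33. Over the 19 pairs whose member had passed in both conditions they were 0.29 and 0.44.

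The difference was tested in all 91 such pairs with limma on the value of the short gene minus that of the gene around it. The test called 3 pairs (3.30%), and 0 where it was run with genes that passed the filter in both conditions. Of the 3, 1 holds a member, Mir1907 with Trps1, and since Mir1907 is in the table through the Positive libraries alone, its difference is given as a description. Trps1 had -0.07, -0.33 and -0.16 in Positive 12, 40 and 55, against 0.00 and -0.08 in Input 40 and 55, and its log2 fold change was -0.15 (SE 0.11), where Mir1907 had 1.99. The difference was 2.14 (SE 0.34) and rests on the shared floor of the Input libraries. It was no longer called without Positive 12, without Input 40, without Input 55 or with a mean-variance trend (adjusted p of 0.0698, 0.213, 0.188 and 0.139 by limma).

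**Figure D4:**
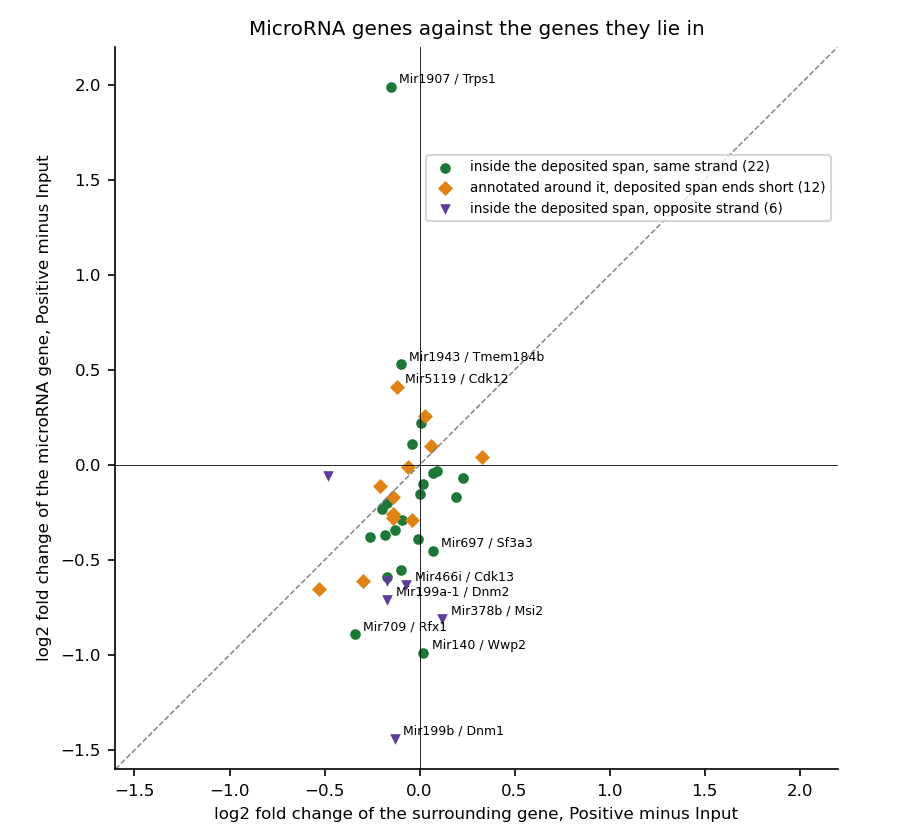
Log2 fold change of Positive over Input of each microRNA gene (y axis) against that of the gene around it (x axis), with equal values on the dashed line; colours and shapes mark the same strand, the opposite strand, and genes that surround the member in GENCODE while their deposited row ends short of it. The surrounding genes keep to -0.53 to 0.33, while the members spread over -1.44 to 1.99, and Mir1907 stands farthest from the line. The members' SD between replicates was also the larger in 18 of the 22 same-strand pairs.

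The next largest differences from the surrounding gene did not pass. Mir140 lay below Wwp2 (difference -1.01, SE 0.35), and Wwp2 itself had 0.02. Mir1943 differed from Tmem184b by 0.63 (SE 0.28), Mir709 from the transcription factor gene Rfx1 by -0.55 (SE 0.41) and Mir697 from the splicing factor gene Sf3a3 by -0.53 (SE 0.37). Mir761 differed from Nrd1 by -0.42 (SE 0.21), and Nrd1 had -0.17 (SE 0.07), in the same direction as its microRNA gene. Differences were under 0.2 in absolute size in 9 pairs, among them Mir3060 with Rnf215, Mir343 with Ercc2 and Mir124a-2 with 2610100L16Rik. Mir7-1 (-0.07) and its host Hnrnpk (0.23), an RNA-binding protein gene, had opposite signs, as did Mir677 (-0.17) and Atp5b (0.19), a subunit of mitochondrial ATP synthase.

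**Figure D5:**
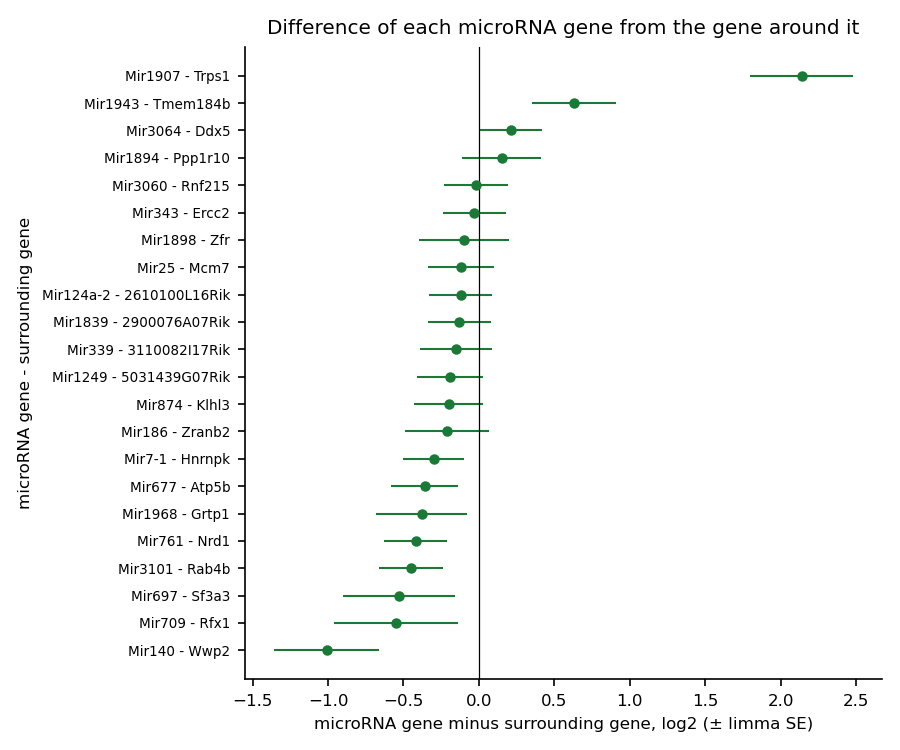
Difference in log2 fold change of Positive over Input between a microRNA gene and the gene around it on the same strand (x axis, points with the limma SE as bars), for 22 pairs (y axis). In 18 pairs the point is below 0. Mir1907 with Trps1 stands highest, at 2.14, with both Input libraries of Mir1907 at the floor and no call among genes that passed the filter in both conditions.

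For 12 further members a gene surrounds the microRNA in GENCODE while its deposited row ends short of it. Here 11 pairs had the same direction (8 lower and 3 higher), and r was 0.66 and rho 0.68 across the 12 pairs. Many of these directions were not stable. The signs of Mir3061, Mir3074-1, Mir24-1, Mir23b, Mir568, Mir9-2 and Mir3960 turned in at least 1 setting run. Those of Mir324, Mir344-2, Mir27b, Mir331 and Mir5119 were kept. These pairs are not independent, since Mir23b, Mir27b and Mir24-1 share the gene 2010111I01Rik. Mir24-1 and Mir3074-1, best read as a single measurement, are counted as separate pairs, the latter with Fancc. Mir344-2 (-0.65) and A330076H08Rik (-0.53), which had -0.68, -0.77 and -0.50 in Positive against -0.24 and 0.00 in Input, and Mir324 (-0.61) and Dvl2 (-0.30), of Wnt signalling, lay lowest. Mir5119 (0.41) and the kinase gene Cdk12 (-0.12) were the exception.

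Of the 6 pairs on opposite strands, 5 members lay below the gene there. Mir378b differed most clearly, at -0.81 with Msi2 at 0.12 (difference -0.92, SE 0.27, unadjusted p = 0.0128, adjusted p = 0.31 by limma). Mir199b (-1.44) lay below Dnm1 (difference -1.31, SE 0.59), and Dnm1 had -0.13. These pairs were looked at after the values had been seen.

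Sequence shared with other transcripts was looked for in the 50 members with a hairpin sequence, so not in Mir1907, Mir5109, Mir709, Mir466i or Mir124a-2. Of 57 windows of 40 bases in Mir682, 26 also occur in transcripts of 11 other genes, and of 70 in Mir703, 13 occur in transcripts of 4 others, Eef1a1 among them. Mir682 (-0.17, SE 0.32) and Mir703 (-0.06, SE 0.61) were among the members with overlapping groups. In addition, 11 members share a mature sequence with another microRNA gene. This counts only members with a mature sequence among the RefSeq sequences used here, so not Mir124a-2, and the true number may be higher.

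The list of genes that make and regulate microRNAs had 35 symbols, including synonyms such as Ars2 for Srrt, and 28 genes were measured. Of these, 22 (78.6%) had a negative log2 fold change, against 53.0% of all genes, and 6 a positive one, and the median was -0.14, or -0.06 with quantile normalization. None passed the test (limma, adjusted p under 0.05), and at an unadjusted p under 0.05, 0 were higher and 2 lower, a share near that of all genes (7.76%). In all Positive libraries 15 (53.6%) lay below both Input libraries, against 21.8% of all genes, and 1 (3.57%) above, against 16.7%. Dicer1, which cuts the hairpin, had -0.20, -0.30 and -0.18 in Positive 12, 40 and 55, against 0.00 and 0.09 in Input 40 and 55, without overlap (log2 fold change -0.27, SE 0.08, unadjusted p = 0.0225). Lin28b, which blocks let-7 processing, had -0.51, -0.91 and -0.61 in Positive against -0.40 and 0.00 in Input (-0.47, SE 0.18).

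The highest of the list were Ran, the GTPase with which Exportin-5 works, and Prkra, a partner of Dicer. Ran had 0.18, 0.39 and -0.01 in Positive against 0.00 and -0.11 in Input (log2 fold change 0.24, SE 0.14), and Prkra had 0.04, 0.15 and 0.14 in Positive against 0.00 and 0.03 in Input (0.10, SE 0.08). The Microprocessor genes, named for their place in the pathway after the values had been seen, were close to Input, with log2 fold changes of -0.06 (SE 0.07) for Drosha and 0.01 (SE 0.08) for Dgcr8. The Argonaute genes were not analysed here.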

How the data were processed

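Nuclear RNA-seq of mouse retina was analysed in 5 libraries, grouped by the fraction in the sample labels. The labels' protocol opens by naming brain tissue, while the source and the homogenised tissue are retina. The authors deposited 1 table of log2 values, normalized and set relative to an Input baseline of each gene. RefSeq gene models were used, per the file headers, with a filter that asked for raw values of at least 5 in all libraries of either condition. The build (mm10) and DESeq are named in the submitters' processing notes. Aligner, counter and use of strand: not given in the sources used here. Without counts, depth and counting error are unknown, and short genes may rest on few reads.

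The groups were compared with limma 3.58.1 under R 4.3.3, Positive over Input (two-sided, no trend, no block, Benjamini-Hochberg over 16422 genes, 1 row per symbol). Differences from surrounding genes were fitted in the same way over 91 pairs of a row of at most 300 bases wholly inside a longer row on the same strand, adjusted over those pairs. Adjusted p-values in the text come from these fits. On simulated data with log2 fold changes of 1 and 2 in 100 genes each, the comparison over 16422 genes called 75% and 91%. The pair test called 100% of 20 pairs changed by 2. That simulation changed 20 of the 91 pairs, while 3 were called in the data. Both simulations drew the libraries as independent, although libraries of the same mouse were correlated, so these shares need not hold for the data. The share called among microRNA genes alone was not tested. Their pooled SD had a median of 0.30, against 0.13 over all genes. In the fit reported their log2 fold changes ran from -1.44 to 1.99, and none was called.

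The replicates are separate animals. Per the labels, an animal number marks libraries from the same mouse. Across genes, their deviations from the group means correlated at r = 0.174 (animal 40) and 0.195 (animal 55), so the animal was also fitted as a block. With the animal as a random block, the correlation within animals was estimated at 0.514. The fit reported has no block and treats libraries of the same mouse as independent. Alternatives also included other normalizations, filters and leaving out each library. Genes named were the 10 highest and 10 lowest members that passed in both conditions, the 5 with the lowest p, members of retinal families, clusters, the 5 largest differences from a surrounding gene and the 2 highest and lowest processing genes; others were named after their values were seen. The members and lists were chosen with earlier results of these data known. Sequences are RefSeq's, and 54 of 55 members matched its microRNA genes by gene number.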

Additional observations from a re-analysis of the deposited data

How the results depend on the processing

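No member and no processing gene passed the test under any setting run, and the lowest adjusted p of a member over the settings was 0.101 by limma. The sign was kept in every setting run by 33 members and turned in at least 1 by 22. The count of members with a negative log2 fold change, an alternative measure added after seeing the data, was 32 of the 44 that passed in both conditions, 36 to 42 in the other fits with all libraries or a block (41 in the fit reported) and 35 to 39 when 1 library was left out, and the members' median ranged from -0.24 to -0.15. Over all genes 0 were called in every setting but the random replicate block, with 11, none of them a member.

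Fitting the animal as a fixed replicate block takes Positive 12 out of the contrast. The median of the processing genes was then -0.11, and log2 fold changes changed sign to 0.07 for Mir3960, 0.09 for Mir760, 0.05 for Mirlet7i, -0.06 for Mirlet7d, 0.02 for Mir9-2, 0.13 for Mir1898, 0.10 for Mirlet7c-2, -0.0009 for Dgcr8, 0.0013 for Mir186 minus its surrounding gene and 0.11 for Mir1898 minus its surrounding gene. With the random replicate block they changed sign to 0.02 for Mir760, -0.02 for Mirlet7d, 0.0025 for Mir9-2, 0.05 for Mir1898 and 0.05 for Mirlet7c-2. The pair test called 4 pairs with the fixed block, 1 of them with a member, and the blocks changed no call of a member. With quantile normalization the processing median was -0.06 and the values turned to -0.14 for Mir1981, -0.10 for Mir670, 0.06 for Mir124a-2, 0.06 for Mir760, 0.05 for Mir703, -0.21 for Mir3061, -0.23 for Mirlet7d, 0.14 for Mir1898, -0.18 for Mir568, -0.06 for Dgcr8 and 0.02 for Mir1898 minus its surrounding gene. With each library centred on its median it was -0.12, and the values turned to 0.01 for Mir9-2 and 0.01 for Mirlet7c-2. The pair test called 0 member pairs and 0 pairs in all with a mean-variance trend, 0 and 0 with genes that passed in both conditions, which leaves Mir1907 out, and 1 and 1 with quantile normalization. With the longest surrounding gene, or with genes on the opposite strand added after seeing the data, it called 1 member pair and 3 pairs as before.

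Leaving out 1 library in turn gave a processing median of -0.18 to -0.11, 0 to 1 member pairs called and 0 to 3 pairs called in all. Where Input 40 or Input 55 was left out, the single Input library was assumed to vary like the Positive ones. Over these fits the log2 fold change of members whose sign turned, and the differences so marked, ran over -0.10 to 0.55 for Mir1981, -0.27 to 0.07 for Mir3960, -0.12 to 0.85 for Mir670, -0.10 to 0.04 for Mir124a-2, -0.16 to 0.09 for Mir760, -0.48 to 0.46 for Mir703, -0.25 to 0.0039 for Mir25, -0.38 to 0.02 for Mir339, -0.03 to 0.56 for Mir182, -0.70 to 0.05 for Mirlet7i, -0.27 to 0.35 for Mir3061, -0.18 to 0.20 for Mirlet7d, -0.37 to 0.36 for Mirlet7a-1, -0.17 to 0.04 for Mir7-1, -0.81 to 0.29 for Mir23b, -0.58 to 0.0018 for Mir3074-1, -0.57 to 0.02 for Mir24-1, -0.40 to 0.09 for Mir682, -0.12 to 0.09 for Mir9-2, -0.31 to 0.24 for Mir1898, -0.13 to 0.10 for Mirlet7c-2, -0.15 to 0.34 for Mir568, -0.05 to 0.08 for Dgcr8, -0.39 to 0.0013 for Mir186 minus its surrounding gene, -0.10 to 0.04 for Mir343 minus its surrounding gene, -0.14 to 0.10 for Mir3060 minus its surrounding gene and -0.35 to 0.14 for Mir1898 minus its surrounding gene. The cause of these changes was not tested. The depth behind the values is unknown, so its part in them cannot be given.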
